A study of Drosophila melanogaster with 16 samples.

Results

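Binding of Polyhomeotic (PH) was compared between the eye disc and the wing disc of third-instar (L3) Drosophila melanogaster larvae. Its members were all regions of the 2 deposited PH lists that lie on arms X, 2L, 2R, 3L, 3R or 4 and have a width above 0. These were 3370 eye disc regions and 5062 wing disc regions, 8432 in all, out of 22397 regions in the 7 region lists of the series. A region counted as shared where at least 1 bp of it overlapped a PH region of the other disc. Except for the overlap itself, no measured value entered the choice.

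The series holds 9 ChIP-seq samples, from eye and wing discs, and 7 RNA-seq samples of mutant and control eye discs that were not used here. The eye disc samples were PH, PC, K27me3, K27ac and input, and the wing disc samples PH, PC, K27me3 and input. Strain, genotype and sex of the larvae behind the ChIP-seq samples are not given in the labels, which name the tissue, the L3 stage and the antibody alone. Each sample stands for replicates 1 and 2 together per its label, with 1 list per sample, so replicate error is unknown and no difference between discs was tested; the counts compare these libraries. Several immunoprecipitations were pooled for each library per the labels' protocols, 12 to 14 for PC or PH. The 95% intervals of shares are exact binomial ones (Clopper-Pearson). They hold counting error and nothing else, and treat regions as separate although neighbouring regions are not independent.

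PH is a subunit of Polycomb repressive complex 1 (PRC1), which also holds Polycomb (PC). PC binds trimethylated lysine 27 of histone H3 (K27me3) through its chromodomain, and that mark is laid down by the complex PRC2 over broad domains at repressed developmental genes. Acetylation of the same lysine (K27ac) marks active enhancers and promoters and cannot sit on the same residue as methylation. In flies PRC1 and PRC2 are brought to chromatin at Polycomb response elements, and imaginal discs, the larval epithelia that form adult structures, keep their segment and organ identity through this system. The lists carry no gene names and no source used here names their genome build, so regions are given by arm and position, 1-based, as the files place them. The largest region end on 3R was at 27.9 Mb, while genes of the Release 6 table used elsewhere for names reach 32.1 Mb on that arm, so no gene was assigned. The tissue labels could not be set against marker genes, since the lists hold no expression.

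PH covered less of the genome in the eye disc than in the wing disc. Eye disc regions covered 4.74 Mb, against 9.22 Mb in the wing disc, an eye-to-wing ratio of 0.515, and the ratio of region numbers was 0.666. The median region was 1249.5 bp wide in the eye disc (quartiles 890 and 1751) and 1552 bp in the wing disc (quartiles 1057 and 2258). The widest regions measured 7380 bp in the eye disc and 11719 bp in the wing disc. The other lists of the same discs were shorter in the eye disc as well. PC had 2027 eye disc and 3716 wing disc regions, with a ratio of covered length of 0.361. K27me3 had 349 eye disc and 583 wing disc domains, but the lengths they covered, 9.23 Mb and 10.1 Mb, stood at a ratio of 0.913. The gap in covered length thus concerned both PRC1 subunits and was small for the histone mark. Read depth of the libraries is unknown, and its part in the length of the lists was not tested.

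Most eye disc PH regions were found in the wing disc, while 46.3% of the wing disc regions were not found in the eye disc. Of the 3370 eye disc regions, 2984 overlapped a wing disc region, 88.5% (95% interval 87.4 to 89.6), and 386 did not. Of the 5062 wing disc regions, 2718 overlapped an eye disc region, 53.7% (95% interval 52.3 to 55.1), and 2344 did not. In base pairs, 4.13 Mb lay in PH regions of both discs, which was 87.1% of the eye disc length, 44.8% of the wing disc length and 42.0% of the 9.83 Mb covered in either disc. Regions of the eye disc alone covered 0.458 Mb, against 3.68 Mb for those of the wing disc alone. When the wing disc list was held to its 3370 widest regions, the length of the eye disc list, the shared part was 68.9% of eye disc regions and 60.5% of wing disc regions. This cut also left out all wing disc regions narrower than 1220 bp. Length of the list and width of the regions thus changed together, and the part of each was not tested.

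Few regions sat at the edge of the overlap rule. The 5 smallest overlaps of shared eye disc regions measured 6 to 13 bp, and the 5 smallest gaps of eye disc regions without overlap measured 6 to 17 bp. For wing disc regions these were 1 to 14 bp and 5 to 11 bp. Overlap of less than 10% of the region occurred in 4 shared eye disc and 14 shared wing disc regions. A gap of at most 100 bp occurred in 23 eye disc and 52 wing disc regions without overlap. A shared eye disc region was covered by wing disc PH over a median of 100% of its width, and a shared wing disc region by eye disc PH over 84.3%.

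Joined where they overlapped, the regions of both discs formed 5400 loci. PH was present in both discs at 2670 loci, 49.4% (95% interval 48.1 to 50.8). It was present in the eye disc alone at 386 loci, 7.15% (6.48 to 7.87), and in the wing disc alone at 2344 loci, 43.4% (42.1 to 44.7). With the wing disc list held to its widest 3370 regions, the share of loci of the eye disc alone was 23.9%. Of the 2670 loci of both discs, 2382 paired 1 eye disc with 1 wing disc region. Another 241 held several eye disc regions that overlapped 1 wing disc region, and 23 held several wing disc regions for 1 of the eye disc. Wing disc regions thus more often bridged neighbouring eye disc regions. The remaining 24 held several of each.

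**Figure D1:**
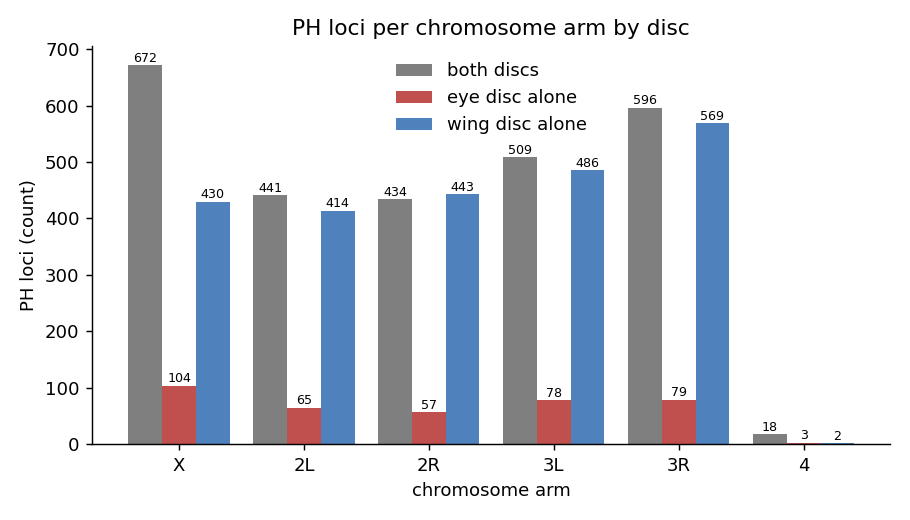
Number of PH loci (y axis) on each chromosome arm (x axis) with PH in both discs (grey), in the eye disc alone (red) and in the wing disc alone (blue), with the count above each bar. On X 672 loci were of both discs against 430 of the wing disc alone, while on 2R the wing disc alone had more (443) than both discs (434).

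On X the shared part of the wing disc list was larger than on the large autosomal arms. Of eye disc regions, the shared part on the 5 large arms was between 87.7% on X and 89.6% on 2R. Of 1112 wing disc regions on X, 61.3% were shared (95% interval 58.4 to 64.2). On 2L, 2R, 3L and 3R the wing disc shares were 52.0%, 50.3%, 51.5% and 51.5%, with intervals that end at 55.4 or lower. The ratio of eye to wing disc regions was 0.763 on X and between 0.613 on 2R and 0.659 on 3L on the 4 large autosomal arms. Arm 4 had 21 regions in each disc and 18 of its 23 loci were of both discs. Without X and 4, the shared part of the wing disc list was 51.3%.

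At loci that paired 1 region of each disc, the region was mostly narrower in the eye disc. Median widths were 1298 bp in the eye disc and 1658 bp in the wing disc over the 2382 pairs. The eye-to-wing ratio of width had a median of 0.852 (quartiles 0.673 and 0.958, 10th and 90th percentiles 0.488 and 1.05). The eye disc region was the wider one in 383 pairs (16.1%), the wing disc region in 1995 (83.8%), and 4 were equal. Centres lay a median of 92.5 bp apart, and 1629 pairs (68.4%) had centres within 200 bp. The pairs were chosen by overlap, which limits how far apart their centres can lie. The eye disc region lay wholly inside the wing disc region in 1462 pairs (61.4%), and the reverse held in 120 (5.04%).

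**Figure D2:**
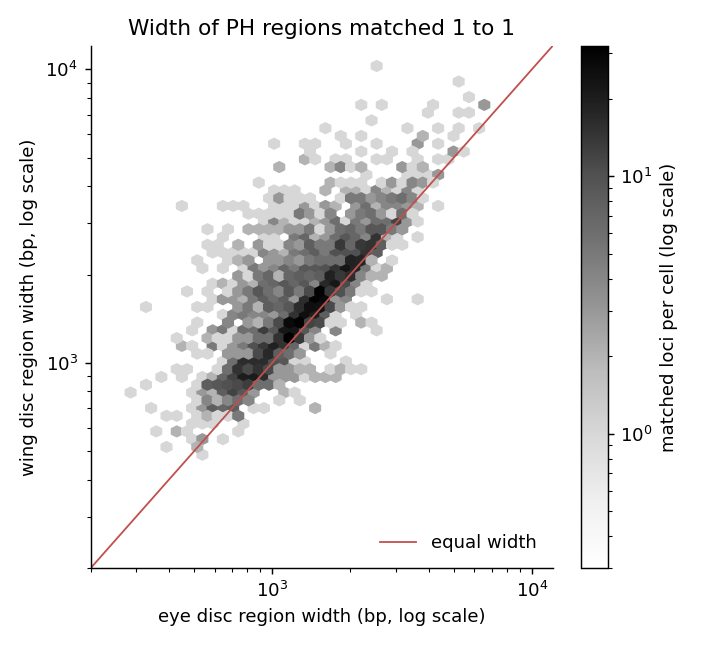
Width of the eye disc region (x axis, bp, log scale) against the wing disc region (y axis, bp, log scale) at loci that pair 1 region of each disc; shading gives the number of loci per cell and the red line marks equal width. A total of 2379 pairs lie in the plotted range of 200 to 12000 bp and most stand above the line, with 1995 of all 2382 pairs wider in the wing disc.

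The median of this ratio lay between 0.836 and 0.882 under each state of the other ChIPs given here. Pairs inside K27me3 of 1 disc alone were not summarised. Its median was 0.858 at the 1041 pairs with PC in both discs and 0.882 at the 198 with PC in the eye disc alone. It was 0.836 at the 483 with PC in the wing disc alone and 0.851 at the 660 with none. The eye disc region was the wider one in 19.2% of pairs with PC in the eye disc alone (95% interval 14.0 to 25.4) and in 12.4% with PC in the wing disc alone (9.61 to 15.7), and these intervals overlap. Pairs inside K27me3 domains of both discs had a median ratio of 0.878 and pairs outside any domain 0.848. The eye disc region was the wider one in 20.1% of the pairs inside (16.7 to 23.8) and in 14.5% of those outside (12.9 to 16.3), intervals that do not overlap. With eye disc K27ac the median ratio was 0.841 and the eye disc region was wider in 13.7% of 1477 pairs (12.0 to 15.6). Without it these were 0.869 and 19.9% of 905 pairs (17.3 to 22.6), and these intervals do not overlap either.

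Shared regions were wider than regions of 1 disc. The rule of 1 bp overlap itself favours wide regions, which have more length to meet a region of the other disc. The part of the rule in the widths and width classes below was not tested. In the eye disc the median was 1275 bp for shared regions and 1030 bp for those of the eye disc alone. In the wing disc it was 1745 bp for shared regions and 1334 bp for those of the wing disc alone. Each list was cut into 4 width classes of about equal number. In the eye disc 82.7% of the narrowest class was shared (95% interval 79.9 to 85.2) and 92.1% of the widest (778 of 845 regions). In the wing disc these were 38.4% (35.7 to 41.1) and 68.1% (65.4 to 70.7). The shares by width below are each taken against the whole list of the other disc, and the wing disc list covers more of the arms (3.95% for eye disc PH and 7.67% for wing disc PH). The part of list length in them was not tested. At 2000 to 3000 bp, 90.9% of 453 eye disc regions were shared, against 64.2% of 1053 wing disc regions. At 3000 bp or more 114 of 119 eye disc regions (95.8%) were shared, against 415 of 582 wing disc regions (71.3%). Under 500 bp, 57 of 77 eye disc regions were shared, against 7 of 66 wing disc regions.

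**Figure D3:**
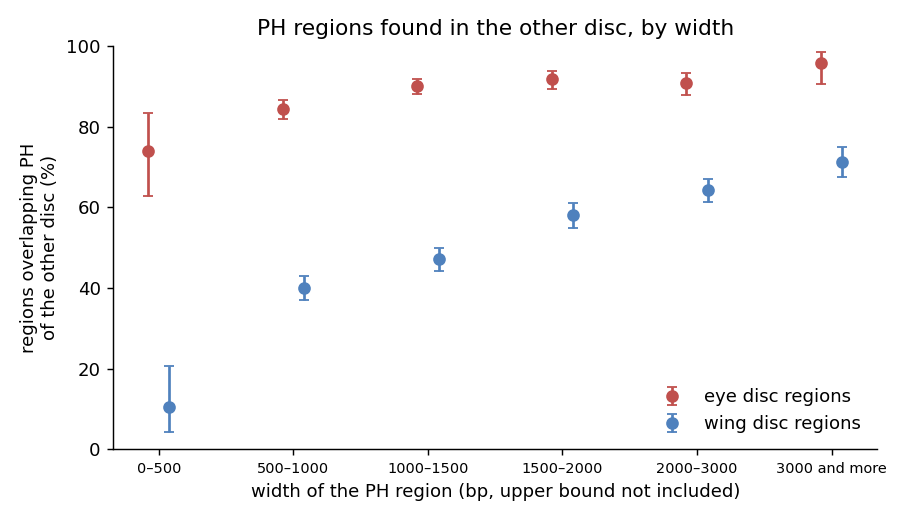
Share of PH regions that overlap PH of the other disc (y axis, percent) by width of the region (x axis, bp) for eye disc (red) and wing disc (blue) regions; bars are exact 95% intervals, which cover counting error only. The eye disc points lie above the wing disc points in every band, at 84.3% and 40.0% for 500 to 1000 bp and at 95.8% and 71.3% for 3000 bp or more.

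The median distance from an eye-disc-alone region to the nearest wing disc PH region was 3932 bp, and 85 of 386 (22.0%) lay within 1 kb. From a wing-disc-alone region to the nearest eye disc region it was 9047 bp, and 289 of 2344 (12.3%) lay within 1 kb. Within 5 kb these were 57.0% of eye-disc-alone and 36.6% of wing-disc-alone regions, and within 10 kb 73.6% and 52.3%. The lists differ in length, 3370 eye disc against 5062 wing disc regions, and the part of this in the distances was not tested.

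The 5 widest loci of the eye disc alone were 3.00 to 4.24 kb wide, and those of the wing disc alone 6.48 to 9.03 kb. All 5 of the eye disc had eye disc K27ac, 3 had eye disc PC and none had wing disc PC. The widest, 3L:19899629-19903863, held eye disc PC and K27ac, no K27me3, and lay 7616 bp from the nearest wing disc PH region. The next, 3R:27433833-27437539 and 3L:8945306-8948705, had the same marks and lay 47648 and 37821 bp away. The fourth, 3R:7481037-7484120, had K27ac and neither PC nor K27me3, and the fifth, 3L:16029894-16032898, had eye disc K27me3 and K27ac and lay 535 bp from wing disc PH.

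Of the 5 widest loci of the wing disc alone, 4 had wing disc PC and wing disc K27me3. The widest, 3R:3993258-4002291, had PC and K27me3 in both discs and lay 492 bp from eye disc PH. It stood next to 3R:3982408-3993193, the second widest locus of both discs, which also had PC and K27me3 in both. The next, 3L:383143-390291, had K27me3 in both discs and PC in the wing disc alone, as had 3R:25383791-25390483. At 3L:723774-730657 the eye disc had K27ac with neither PC nor K27me3, and the wing disc had PC and K27me3. The fifth, 2R:11122893-11129370, had eye disc K27ac and no PC or K27me3, and lay 87158 bp from eye disc PH. The widest locus of both discs, 3L:3244475-3256193, joined 3 eye disc regions with 1 wing disc region over 11.7 kb, with PC in both discs, eye disc K27ac and no K27me3.

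PC, which the classes did not use, was found more often at shared PH regions than at regions of 1 disc. Over the whole lists, 50.1% of eye disc PH regions overlapped eye disc PC and 53.5% of wing disc PH regions overlapped wing disc PC. In the eye disc, 51.7% of 2984 shared regions overlapped PC (95% interval 49.9 to 53.5), against 37.6% of 386 regions of that disc alone (32.7 to 42.6), a difference of 14.1 percentage points (Newcombe 95% interval 8.90 to 19.2). In the wing disc, 65.5% of 2718 shared regions did (63.6 to 67.2), against 39.7% of 2344 (37.7 to 41.7), a difference of 25.7 points (23.0 to 28.4). Within the 4 width classes the difference was 5.02 to 18.8 points in the eye disc and 15.8 to 27.3 points in the wing disc. It was thus above 0 in every class of both discs. In the eye disc the intervals of the shared and single-disc shares overlapped in every class but the widest. In its narrowest class they were 33.6 to 40.9 and 24.7 to 40.4. In the wing disc they overlapped in no class.

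PC of the other disc was set against the same classes. Over the whole lists, 62.0% of eye disc PH regions overlapped wing disc PC, and 31.7% of wing disc PH regions overlapped eye disc PC. Wing disc PC was at 140 of the 386 eye-disc-alone PH regions, 36.3% (31.5 to 41.3), against 65.3% of shared eye disc regions. Eye disc PC was at 160 of the 2344 wing-disc-alone PH regions, 6.83% (95% interval 5.84 to 7.92), against 53.2% of shared wing disc regions. Regions with PH in the eye disc alone thus had PC of either disc at like shares, whereas regions with PH in the wing disc alone seldom had PC in the eye disc. The eye disc PC list covers 2.51% of the span of the arms and the wing disc list 6.94%, and the part of that gap in these shares was not tested.

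**Figure D4:**
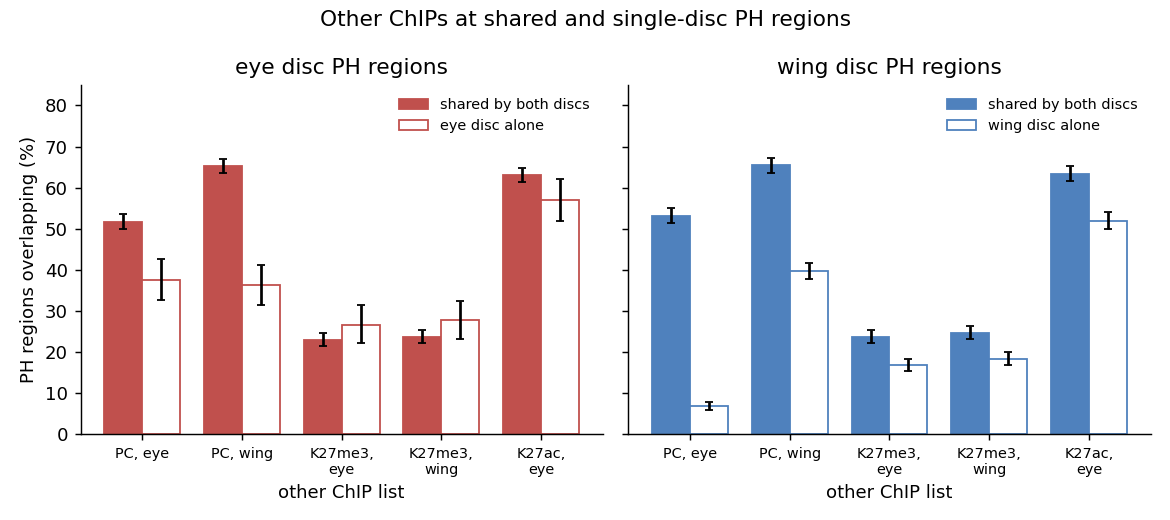
Share of eye disc (left, red) and wing disc (right, blue) PH regions that overlap each other ChIP list (y axis, percent), for regions shared by both discs (filled) and of that disc alone (open); bars are exact 95% intervals, which cover counting error only. Eye disc PC stands at 6.83% of wing-disc-alone regions and 53.2% of shared wing disc regions.

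The class of a PH locus went with the state of PC in the 2 discs. Over all 5400 PH loci, 32.0% overlapped eye disc PC and 52.3% wing disc PC. Of the 1415 loci with PC in both discs, 85.1% had PH in both (95% interval 83.1 to 86.9), 6.36% in the eye disc alone and 8.55% in the wing disc alone. Of the 1408 loci with PC in the wing disc alone, 38.9% had PH in both discs, 3.55% in the eye disc alone and 57.5% in the wing disc alone (54.9 to 60.1). Of the 313 loci with PC in the eye disc alone, 70.0% had PH in both, 17.6% in the eye disc alone (13.5 to 22.2) and 12.5% in the wing disc alone. The 2264 loci without PC in either disc had PH in both discs at 30.9%, in the eye disc alone at 8.44% and in the wing disc alone at 60.7%. The largest single group of loci of the wing disc alone, 1374 of 2344 (58.6%), had no PC in either disc, while 699 of 2670 loci of both discs (26.2%) had none.

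K27me3 was not where most PH regions lay. Eye disc K27me3 domains held 23.4% of eye disc PH regions, and wing disc domains held 21.8% of wing disc PH regions, a difference of 1.65 points that was not tested. Domains covered 7.68% of the span of the arms in the eye disc and 8.40% in the wing disc. Among shared regions the shares were 23.0% in the eye disc and 24.7% in the wing disc. Shared minus single-disc, the difference was -3.66 points in the eye disc (-8.52 to 0.783) and 6.34 points in the wing disc (4.07 to 8.58), and in the widest of the 4 width classes these were 0.955 and -2.94. Among regions of 1 disc the shares were 26.7% in the eye disc (22.3 to 31.4) and 18.4% in the wing disc (16.8 to 20.0), a difference of 8.30 points. With 1 list per disc this difference was not tested either.

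K27me3 of a single disc was rare at PH loci of every class. Over all PH loci, 20.9% overlapped eye disc K27me3 and 22.1% wing disc K27me3. Of the 386 loci of the eye disc alone, 99 lay in K27me3 of both discs, 4 in that of the eye disc alone, 8 in that of the wing disc alone and 275 in neither. Of the 2344 loci of the wing disc alone, 361 lay in K27me3 of both discs, 33 in that of the eye disc alone, 70 in that of the wing disc alone and 1880 in neither. K27me3 of the same single disc was thus found at 1.04% (0.283 to 2.63) of the loci of the eye disc alone and at 2.99% (2.34 to 3.76) of those of the wing disc alone. At loci with PH in both discs, K27me3 of the eye disc alone was at 1.35% (0.946 to 1.86) and that of the wing disc alone at 2.25% (1.72 to 2.88), and these intervals overlap those of the single-disc loci.

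Inside K27me3 of both discs, most loci with PH in the wing disc alone had PC in the wing disc alone. Of the 99 loci of the eye disc alone, 60 had PC in both discs, 9 in the eye disc alone, 19 in the wing disc alone and 11 in neither. Of the 361 loci of the wing disc alone, 49 had PC in both discs, 5 in the eye disc alone, 57 in neither and 250 in the wing disc alone, which was 69.3% (95% interval 64.2 to 74.0). At the 595 loci with PH in both discs, PC was in both at 468, 78.7% (75.1 to 81.9). It was in the wing disc alone at 43 of them, 7.23% (5.28 to 9.61). Of all 5400 PH loci, inside and outside K27me3, 1408 had PC in the wing disc alone. The wing disc PC list covers 6.94% of the span of the arms and the eye disc list 2.51%. The part of that gap in these shares was not tested. Outside K27me3, 174 of 275 loci of the eye disc alone (63.3%) and 1288 of 1880 of the wing disc alone (68.5%) had no PC in either disc, against 670 of 1979 loci of both discs (33.9%).

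Eye disc K27ac overlapped 52.0% to 63.4% of PH regions in each class of both lists. It overlapped 62.5% of all eye disc PH regions and 58.1% of all wing disc PH regions, while the list covers 21.6% of the span of the arms. It overlapped 63.2% of shared eye disc regions and 57.0% of those of the eye disc alone, a difference of 6.21 points (95% interval 1.06 to 11.5). That difference depended on the settings. It was 2.33 points (-3.64 to 8.53) without arms X and 4 and 25.6 with the wing disc list held to its 3370 widest regions. Cutting every list, K27ac included, to regions at or above its median width gave 17.8, and this also changed which regions counted as shared. With the lists uncut, the difference was -2.19 points in the widest of the 4 width classes. Within 1 kb around region centres it was -3.19 points (-7.33 to 1.12). Of wing disc regions, 63.4% of shared ones and 52.0% of those of the wing disc alone overlapped it, a difference of 11.4 points (8.70 to 14.1). Over the 4 width classes, narrow to wide, it was 2.09, 2.18, 4.48 and 11.4 points. K27ac of the wing disc was not analysed here.

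The acetylated PH loci were mostly those outside K27me3. Of the loci of both discs, 148 of 691 inside a K27me3 domain of either disc had eye disc K27ac (21.4%), against 1553 of 1979 outside (78.5%). At loci of the eye disc alone these were 13 of 111 (11.7%) and 207 of 275 (75.3%). At loci of the wing disc alone they were 73 of 464 (15.7%) and 1146 of 1880 (61.0%, 95% interval 58.7 to 63.2). Outside K27me3 the share was thus lower at loci of the wing disc alone than at loci of both discs (76.6 to 80.3), by more than the counting error. A further 54 loci of the eye disc alone (14.0%) and 584 of the wing disc alone (24.9%) had no PC or K27me3 in either disc and no eye disc K27ac, against 232 of both discs (8.69%). Loci of both discs were wider, with a median of 1824 bp, against 1030 bp for the eye disc alone and 1334 bp for the wing disc alone. The part of width in all these locus shares was not tested.

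PH was spread over most wide K27me3 domains in both discs. Of the domains of at least 10 kb, 158 of 169 held PH in the eye disc (93.5%) and 173 of 177 in the wing disc (97.7%). Narrower domains seldom held any, 23 of 180 in the eye disc and 57 of 406 in the wing disc. Wide domains had 8.59 PH regions per 100 kb in the eye disc and 11.1 in the wing disc. PH covered 11.5% of their length in the eye disc and 20.3% in the wing disc. Over the whole span of the arms PH covered 3.95% in the eye disc and 7.67% in the wing disc. In 0 wide eye disc domains was every PH region of the eye disc alone, and in 8 wide wing disc domains every PH region was of the wing disc alone.

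Domains of both discs were then joined where they overlapped, and 187 joined domains measured at least 10 kb. They held 821 eye disc and 1105 wing disc PH regions. Over the whole lists the eye-to-wing ratio was 0.666 for region numbers and 0.515 for covered length. The part of these list sizes in the counts here and in the domains named below was not tested. The eye disc had more regions in 31 domains (16.6%), the wing disc in 111 (59.4%), and 45 had equal numbers. By covered length the eye disc was ahead in 26 and the wing disc in 157. Eye disc PH was absent from 9 domains that held wing disc PH, and 1 domain held eye disc PH without any of the wing disc. The 8 joined domains methylated in the eye disc alone held 17 eye disc and 23 wing disc PH regions, and the 12 methylated in the wing disc alone held 20 eye disc and 34 wing disc PH regions.

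**Figure D5:**
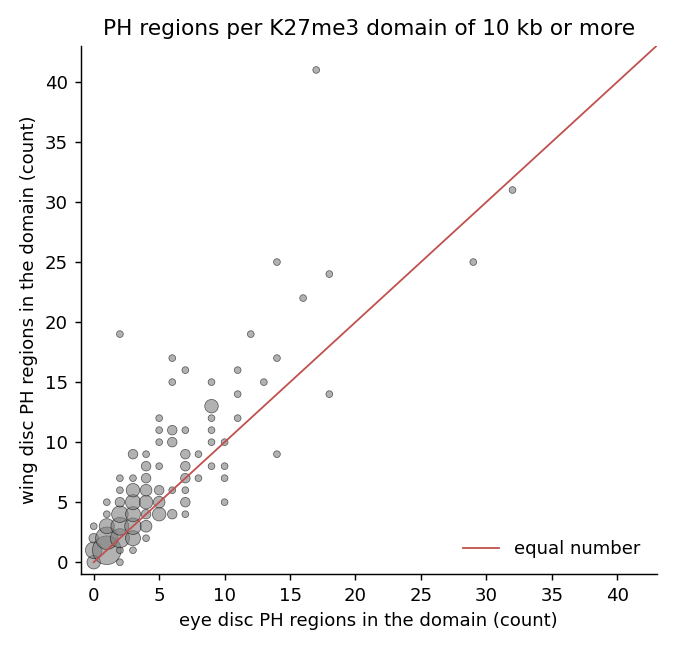
Number of eye disc PH regions (x axis) against wing disc PH regions (y axis) in each of 187 joined K27me3 domains of 10 kb or more; larger points stand for more domains and the red line marks equal numbers. A total of 111 domains lie above the line and 31 below it, and the highest point holds 17 eye disc and 41 wing disc regions.

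The domain with the most wing disc PH was 3R:2649701-2891451, 242 kb wide and methylated in both discs. It held 17 eye disc and 41 wing disc PH regions, which covered 19.8 kb in the eye disc and 70.4 kb in the wing disc. Its loci were 15 of both discs, 1 of the eye disc alone and 26 of the wing disc alone. All 42 overlapped K27me3 of both discs and none had eye disc K27ac. Of the 26 loci of the wing disc alone, 4 had eye disc PC and 25 had wing disc PC. These 26 lay between 2671054 and 2870035, among the loci of both discs, which ran from 2657413 to 2863958. The narrowest of the 26, 2756950-2756972, was 0.0230 kb wide and counted as a locus of its own. The widest locus of the wing disc alone here, 2793420-2797596, was 4.18 kb wide and had PC in both discs. The next, 2779079-2783225 and 2774503-2778411, were 4.15 and 3.91 kb wide and had PC in the wing disc alone. PC covered 27.5 kb of the domain in the eye disc and 153 kb in the wing disc.

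A second domain, 3L:10893001-11036951, differed most in proportion among those with the largest gaps. It held 2 eye disc and 19 wing disc PH regions, which covered 2.94 kb and 40.4 kb. Of its loci, 16 were of the wing disc alone, and 14 of these stood next to each other in 1 run over 93.2 kb, from 10896675 to 10989827. The narrowest of the 14, 10898046-10898061, was 0.0160 kb wide and counted as a locus of its own. In that run 7 overlapped eye disc K27me3 and all 14 overlapped wing disc K27me3. Eye disc PC was at 1 and wing disc PC at 11 of them, and 2 had eye disc K27ac. PC covered 4.76 kb of this domain in the eye disc and 49.6 kb in the wing disc.

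In 3R:12588001-12813951 the numbers of PH regions were close. This domain of 226 kb had the same borders in both discs and held 32 eye disc and 31 wing disc PH regions, which covered 37.4 kb in the eye disc and 45.6 kb in the wing disc. PC differed more, with 26 eye disc regions over 47.3 kb and 89 wing disc regions over 169.9 kb. Its loci were 27 of both discs, 3 of the eye disc alone and 4 of the wing disc alone, all inside K27me3 of both discs and none with eye disc K27ac. The domain 2R:8836401-8955951 had 29 eye disc and 25 wing disc PH regions, over 44.8 and 51.4 kb, and 21 loci of both discs.

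Among the 5 domains with the largest eye disc surplus of PH regions, X:8647001-8738451 had the most loci of the eye disc alone. It held 14 eye disc and 9 wing disc PH regions, which covered 12.2 kb and 9.05 kb. Its loci were 7 of both discs, 7 of the eye disc alone and 1 of the wing disc alone. The longest run of loci of the eye disc alone in the genome, 6 loci over 42.9 kb from 8653005 to 8695881, lay here. All 7 loci of the eye disc alone were inside K27me3 of both discs, and 4 had eye disc PC and 4 wing disc PC. They were narrow, with a median of 0.661 kb, against 1.01 kb at the loci of both discs in that domain. PC covered 11.2 kb of it in the eye disc and 23.8 kb in the wing disc, the opposite order to PH.

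Loci of 1 disc stood beside their own kind somewhat more often than their number. Among neighbours of loci of the eye disc alone, 13.5% were of the eye disc alone, against 7.15% of all loci. Among neighbours of loci of the wing disc alone, 47.8% were of the wing disc alone, against 43.4% of all loci. The longest runs had 14 loci for both discs and for the wing disc alone, and 6 for the eye disc alone. Besides the run on 3L described above, a second run of 14 loci of the wing disc alone spanned 428 kb at 3L:21945908-22373732. It differed in its marks, with eye disc PC at 0 loci, wing disc PC at 6, wing disc K27me3 at 2 and eye disc K27ac at 10. The bin of 100 kb with the most loci of the wing disc alone was 3R:2700001-2800000, with 13, inside the domain described above.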

How the data were processed

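ChIP-seq regions of PH, PC, K27me3 and K27ac were analysed, 1 list per sample. Per the submitters' processing notes the tools were CASAVA 1.8.2 and SICER. Thresholds, genome build and the handling of replicates are named in no source used here. Each deposited list holds an arm, a start and an end, with no score, height or p-value. Starts were read as 0-based, as in BED files, and are printed 1-based.

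Regions off the 6 main arms (7 eye disc and 8 wing disc PH regions on U) and of 0 bp (1 and 2) were left out. Overlap needed 1 bp. Joined loci merge overlapping regions of both discs. Named positions were the 5 widest loci per class, the longest runs, the 100 kb bins with the most loci of 1 disc and the K27me3 domains with the most PH regions. Domains 3L:10893001-11036951 and X:8647001-8738451 were also chosen by their values, as extremes of the difference between discs. Members and comparisons were chosen with earlier results of these data known. The span of the arms is the sum of the largest region ends. With 1 sample per disc no test was run. Computation used Python 3.11.15, numpy 2.4.6, scipy 1.17.1, statsmodels and matplotlib 3.10.9. Overlap functions were tested on simulated data.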

Additional observations from a re-analysis of the deposited data

Results flagged for a closer look

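K27me3 showed opposite signs in the 2 discs. The share of shared PH regions inside same-disc K27me3 minus the share of single-disc regions was -3.66 points in the eye disc (95% interval -8.52 to 0.783) and 6.34 points in the wing disc (4.07 to 8.58). The difference between the discs was not tested, and the eye disc interval includes 0. With overlap of at least 50% of the region required for PH and K27me3 alike, the eye disc value was -4.56 (-9.26 to -0.239), an interval below 0. With gaps of up to 1 kb allowed for both, it was 2.30 (-2.99 to 6.96). These settings changed which regions counted as shared and which as inside K27me3, and the part of each was not tested. PH regions also lay on U, outside the main arms, 7 in the eye disc and 8 in the wing disc, of which 2 in each overlapped the other disc.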

How the results depend on the processing

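No paired analysis was possible because each disc has 1 PH list with replicates 1 and 2 together, so nothing could be left out either. The settings of 50% overlap and of 1 kb gaps applied to overlap with the other ChIPs as well as between the PH lists. Requiring overlap of 50% of the region gave 47.7% of wing disc regions shared. The width ratio of shared over single-disc regions was then 1.17 in the wing disc (1.31 as reported). Every list, also those of the other ChIPs, was then cut to regions at or above its median width. Shared parts were then 77.6% of eye disc and 49.5% of wing disc regions and 42.7% of loci. The wing width ratio was 1.16, the PC difference in the wing disc 21.4 points, its K27me3 difference 3.71 and the eye disc K27ac difference 17.8. In the next setting PH and PC regions were both replaced by 1 kb around their centres, while K27me3 and K27ac regions were kept. With 1 kb around centres, 82.6% of eye disc regions and 46.7% of loci were shared. PC differences were 8.29 (eye) and 22.2 (wing), and the eye disc K27ac difference was -3.19, with the sign turned. Allowing gaps of 1 kb gave 91.1%, 59.4% and 52.9% of eye disc regions, wing disc regions and loci, and a wing width ratio of 1.27. The eye disc K27me3 difference was then 2.30 (-2.99 to 6.96), against -3.66 (-8.52 to 0.783) as reported, and both intervals include 0. Without X and 4 the wing share was 51.3%, the locus share 47.5%, the eye width ratio 1.14 and the eye disc K27ac difference 2.33, with an interval that includes 0. Holding the wing list to its 3370 widest regions, an alternative chosen after seeing the data, gave 68.9%, 60.5% and 45.8%, width ratios of 1.63 (eye) and 1.14 (wing), a PC difference of 21.3 in the wing disc and a K27ac difference of 25.6 in the eye disc. The cause of these shifts was not tested. The fixed window around centres was not run for widths, which it sets equal. PC differences kept their sign in both discs under all 6 settings. Depth of the libraries is unknown, so a region missing from a list is not shown to lack PH.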
